A study of Mus musculus with 12 samples.

Results

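Across 6 maps of acetylated histone H3 in the embryonic mouse cortex, 247 of 85918 merged acetylated regions (0.287%) were at least 10000 bp wide and held a peak in every map. These 247 broad domains were chosen by peak positions: all peaks of the 6 lists that overlapped or touched were merged, and a merged region was kept if it reached 10000 bp and had a peak in all 6 lists. Every merged region of that width had a peak in all 6 lists, so 0 wide regions were dropped for a missing library. The domains made up 0.619% of the 39889 regions found in all 6 lists. They spanned 4.03 Mb of the 112 Mb under any peak (3.59%). The widths and the presence in all lists are the selection itself and are given below as description, without a test.

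The samples were whole cortex lysates of mouse embryos at E15.5 (embryonic days after mating), while cortical neurons are being born, with 3 H3K27ac libraries per genotype. The controls, called WT here, were Prdm16 flox/flox without Cre. The conditional knockouts (cKO) were Emx1Ires-Cre; Prdm16flox/flox, so all 6 samples carried the floxed allele. Emx1-driven Cre acts in dorsal forebrain progenitors and their descendants, while cortical interneurons, which migrate in from the ventral forebrain, and vessels or microglia lie outside that lineage. The cKO cortex is therefore a mixture of recombined and other cells, and in such bulk lysates fewer cells of a type and less acetylation per cell cannot be told apart. Nothing in the labels says whether replicates were separate embryos, pools or litters, and the p-values given here can speak only of variation among these libraries, some or all of it possibly technical. Library identifiers put replicates 1 and 2 of both genotypes under one identifier (A) and replicate 3 of both under another (B), and what an identifier stands for is not stated.

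Histone H3 acetylated at lysine 27 (H3K27ac) marks nucleosomes at active promoters and enhancers, where it is written by the coactivators p300 and CBP. Most acetylated stretches cover a promoter or an enhancer and little more. Long stretches, in which neighbouring elements run together, are known from many tissues to lie at genes for transcription factors that set cell identity. Prdm16 encodes a zinc-finger transcriptional regulator expressed in the radial glia, the progenitors of the cortex. Comparing the domains between genotypes asks whether their acetylated extent differed where the floxed allele could be recombined.

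A microRNA family gives a view of what the domains hold, since all 3 mouse genes of the brain-enriched miR-9 lay in domains that were among the 12 widest. Mature miRNAs are short RNAs that pair with messages mainly through their seed, bases 2 to 8 from the 5′ end. The sequences below are from RefSeq (GRCm38.p6) on the plus strand, 5′ to 3′, with the seed in capitals. The miR-9 arms are shown because the same mature sequences arise from 3 loci inside separate domains, and miR-125b-5p because both of its loci did so as well.
miR-9-5p of Mir9-3, chr7:79505279-79505301: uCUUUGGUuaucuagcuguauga
miR-9-3p of Mir9-3, chr7:79505318-79505339: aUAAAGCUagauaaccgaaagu
miR-125b-5p of Mir125b-1, chr9:41581940-41581961: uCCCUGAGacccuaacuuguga
The 5p and 3p arms of miR-9 carry different seeds, CUUUGGU and UAAAGCU. Mir9-1 lay in a domain of 50628 bp, Mir9-2 in one of 40563 bp and Mir9-3 in one of 55861 bp. Mir125b-1 lay in a domain of 16195 bp and Mir125b-2 in one of 10551 bp, whereas Mir125a met no merged region. Of the neuronal miR-124 genes, Mir124a-1 (15753 bp) and Mir124a-2 (14584 bp) lay in domains and Mir124a-3 lay in a shared region of 6708 bp. In all, 21 annotated miRNA genes fell in 15 domains. That was 21 of 1228 miRNA genes, or 1.71%, and includes antisense miRNA entries at the same miR-9 loci.

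Promoters within domains differed widely in CpG content, and 3 are printed as examples: Sox2, a progenitor factor, Pou3f3, an upper-layer neuron factor, and Tbr1, a deep-layer neuron factor. The Tbr1 window lies inside the gene, which begins at chr2:61802863. Each runs from 250 bases before to 50 after a RefSeq transcription start (GRCm38.p6), 5′ to 3′ on the gene's strand, plus for all 3, with CG dinucleotides in capitals.
Sox2, chr3:34649745-34650044: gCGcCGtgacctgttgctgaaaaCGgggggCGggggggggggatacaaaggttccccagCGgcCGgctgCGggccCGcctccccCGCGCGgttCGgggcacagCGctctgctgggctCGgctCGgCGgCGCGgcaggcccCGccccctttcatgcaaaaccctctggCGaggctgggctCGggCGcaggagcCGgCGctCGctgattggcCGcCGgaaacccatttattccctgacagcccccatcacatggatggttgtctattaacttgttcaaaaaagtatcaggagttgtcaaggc
Pou3f3, chr1:42695518-42695817: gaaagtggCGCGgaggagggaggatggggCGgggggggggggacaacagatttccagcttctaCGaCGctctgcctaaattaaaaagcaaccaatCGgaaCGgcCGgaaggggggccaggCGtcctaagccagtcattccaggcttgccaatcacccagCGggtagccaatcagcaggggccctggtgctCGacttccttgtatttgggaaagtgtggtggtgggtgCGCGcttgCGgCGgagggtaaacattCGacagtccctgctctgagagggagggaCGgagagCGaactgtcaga
Tbr1, chr2:61804203-61804502: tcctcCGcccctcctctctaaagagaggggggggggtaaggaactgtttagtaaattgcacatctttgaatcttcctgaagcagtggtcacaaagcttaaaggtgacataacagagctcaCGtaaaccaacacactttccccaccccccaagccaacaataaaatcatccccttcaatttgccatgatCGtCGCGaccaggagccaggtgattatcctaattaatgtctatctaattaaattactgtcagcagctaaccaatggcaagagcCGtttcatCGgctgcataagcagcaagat
The Sox2 window held 27 CG dinucleotides, the Pou3f3 window 18 and the Tbr1 window 7. A single peak spanned each of these windows in all 6 libraries. Their observed to expected CpG ratios, the CG count relative to that given by the C and G content, were 0.82, 0.70 and 0.45. Other starts in domains lay outside these values, with 0.26 at Lyl1 and 1.03 at Zmiz1. Over 171 listed starts of 119 genes in domains the median ratio was 0.70, against 0.78 over 11911 starts in shared regions under 10000 bp and 0.57 over all 21262 starts. The share of starts above 0.6 was 62.6% in domains, 76.7% in the narrower shared regions and 7.42% at starts in no region. Starts of a gene share much of their window, so these shares describe windows and not independent genes.

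The letters TATAAA, searched on both strands, were in 14.6% of domain start windows, 5.94% of windows in narrower shared regions and 12.6% of all windows. CCAAT was in 45.6%, 37.7% and 38.2%. CAGATG, an E-box of the kind bound by proneural factors, was in 17.5%, 10.4% and 14.6%, and ACAAAG, a core of Sox factor sites, in 18.7%, 13.0% and 16.8%. At starts in no region TATAAA was in 22.0% of windows, CCAAT in 39.2%, CAGATG in 20.3% and ACAAAG in 22.1%, so domain windows held the highest share only for CCAAT among these sets. None of the 4 motifs contains another, and a match is a description of the sequence and not a binding site.

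The domains ranged from 10000 to 107076 bp, with a median of 13128 bp and quartiles of 11122 and 16472 bp. Shared regions under 10000 bp had a median width of 1648 bp. Of the 247 domains, 84 were under 12 kb, 39 reached 20 kb, 16 reached 30 kb and 5 reached 50 kb. The distribution had no gap at the threshold. The 5 domains just inside it were at Gm31155 (10000 bp), Gm28175 (10004 bp), Zic5 (10022 bp), Tgif1 (10029 bp) and Nfia (10052 bp). The 5 regions just outside were at Lmo3 (9989 bp), Slc39a11 and Cog1 (9971 bp), 3110099E03Rik (9915 bp), Heg1 (9911 bp) and Zbtb38 (9907 bp).

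**Figure D1:**
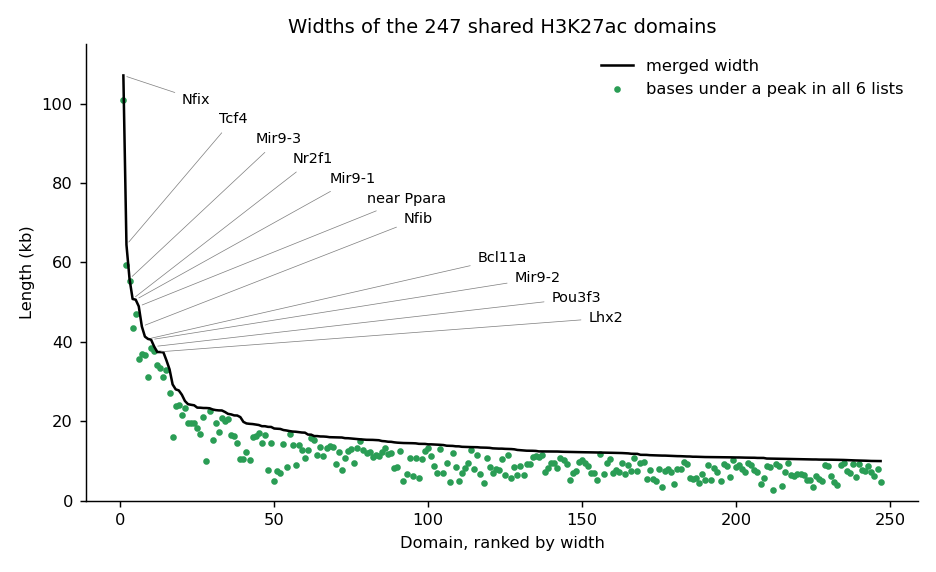
Merged width in kb of the 247 domains ranked from widest to narrowest (black line), with the bases of each that lay under a peak in all 6 lists (green points). Names mark domains among the 12 widest, from Nfix at 107076 bp to Lhx2 at 37453 bp, and most domains sit below 20 kb.

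The widest domains lay at transcription factor genes and at miR-9 loci. The widest of all, chr8:84696885-84803960, covered Nfix, a nuclear factor I gene of progenitor differentiation, from end to end, together with the gene Lyl1 and part of Trmt1. Its peaks covered 107076, 105834 and 102504 bp in WT replicates 1 to 3 and 104758, 105045 and 101834 bp in the cKO replicates. The groups overlapped, and at least 95.1% of the width was covered in every library. A domain of 64443 bp lay inside Tcf4, which encodes an E-protein partner of proneural factors, on chromosome 18. The Mir9-3 domain, chr7:79495508-79551368, was 1 unbroken peak in all 6 lists, and 99.1% of its width was covered in all of them, the highest share of any domain.

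Next came a domain of 50808 bp at Nr2f1, a nuclear receptor that patterns cortical areas, with the end of Fam172a (chr13:78161546-78212353). The Mir9-1 domain (chr3:88193854-88244481) also met Rhbg. A domain of 48952 bp, chr15:85644802-85693753, met no listed gene, and the nearest coding gene, Ppara, was 41157 bp away. Also among the 12 widest were those at Nfib (43892 bp), Bcl11a (40748 bp), Mir9-2 (40563 bp), Pou3f3 (38832 bp) and Lhx2 (37453 bp). Lhx2 encodes a homeobox factor that specifies the cortex, and Bcl11a a zinc-finger factor of postmitotic neurons. At Lhx2 (chr2:38335422-38372874), covered length was 36737, 36928 and 35285 bp in WT and 36037, 35902 and 35217 bp in cKO. WT replicate 2 was the longest and the groups overlapped.

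Many domains were broken into several peaks in some libraries. Bases covered in all 6 lists made up 73.9% of a domain's width in the median (range 26.6% to 99.1%), or 9343 bp. This common core reached 10 kb in 104 domains and was under 50% of the width in 40. An unbroken peak of at least 10 kb was present in all 6 lists in 74 domains, in 1 to 5 lists in 148, and in none in 25. In those 25 the width arose from merging, since peaks of different libraries bridged each other's gaps or had offset ends. At Ldb1, for example, every list held 1 peak, of 9315 to 9928 bp, in a domain of 10164 bp. Wider domains had the larger core share: the median core was 67.2% of the width below 12000 bp, 73.7% from 12000 to below 20000 bp and 85.0% from 20000 bp upward. The same offset of peak ends takes a larger share of a narrow domain, and its part in this order was not tested. The widest core was that of Nfix at 100891 bp, followed by Tcf4 (59367 bp), Mir9-3 (55356 bp), the Mir9-1 domain (46911 bp) and Nr2f1 (43489 bp). The lowest core share, 26.6%, was at Ttc28.

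The lists themselves differed in length, and the covered part of the domains followed the list lengths. WT lists held 83.3, 92.1 and 53.9 Mb under peaks in replicates 1 to 3, and cKO lists 72.9, 70.8 and 63.5 Mb. Within domains, the median share of the width covered was 94.9%, 96.2% and 77.4% in WT and 90.0%, 89.0% and 84.8% in cKO, in the order of the list lengths. WT replicate 3 stood lowest, WT replicates 1 and 2 highest, and the cKO libraries lay between. The number of peaks per domain ran the other way, 1.51, 1.49 and 2.34 in WT and 1.84, 1.94 and 2.24 in cKO. The number of domains holding an unbroken peak of at least 10 kb was 173, 175 and 85 in WT and 124, 122 and 100 in cKO. The cKO minus WT difference in peaks per domain was 0.228, with 0.391 within identifier A and -0.0972 within B.

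Domains took a larger share of a list where the list was short. The share of covered bases that fell in domains was 4.54%, 4.15% and 5.81% in WT and 4.89%, 5.0% and 5.27% in cKO. The means were 4.83% ± 0.871 (SD, n = 3) and 5.05% ± 0.195 (SD, n = 3). The difference of 0.221 percentage points was below the SD of the WT libraries and just above that of the cKO libraries. Within identifier A the cKO share was higher by 0.603 percentage points, and within identifier B the cKO minus WT value was -0.543, so the direction did not hold within identifiers. Narrower shared regions from 5000 to below 10000 bp showed the same ordering, at 9.83%, 9.14% and 11.4% in WT and 10.3%, 10.3% and 10.7% in cKO.

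**Figure D2:**
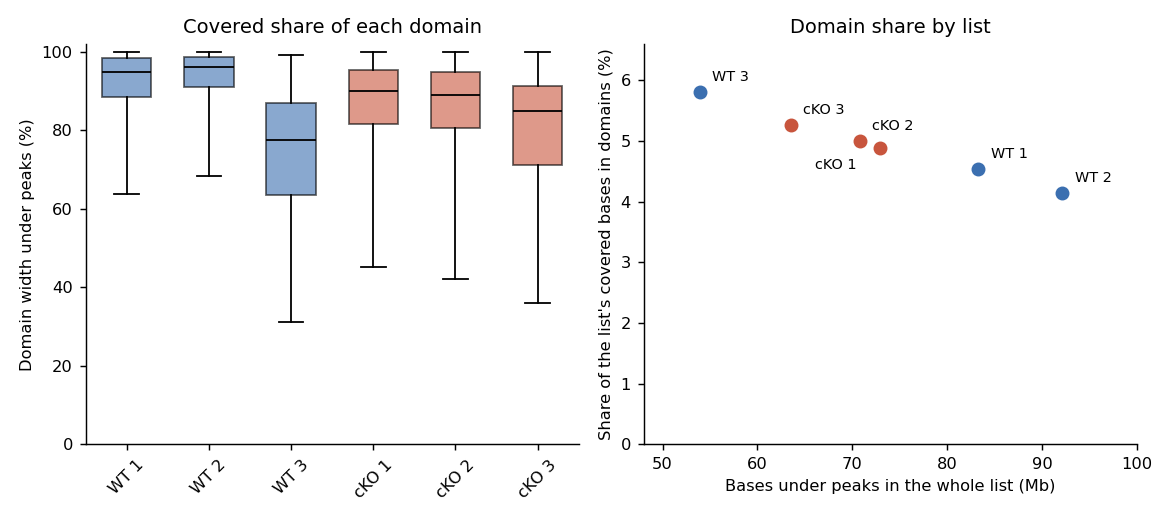
Left, percentage of each domain's width under peaks in each library (boxes, quartiles with the median, and whiskers to the extremes over the 247 domains; WT blue, cKO red). Right, share of each list's covered bases lying in domains (percent) against the list's covered length (Mb, axis starting at 48 Mb); the share falls from 5.81% in the shortest list, WT replicate 3, to 4.15% in the longest, WT replicate 2.

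Peaks in domains also had higher fold enrichment than those in narrower shared regions. The fold enrichment given by the authors' peak caller had medians of 9.69, 9.61 and 7.24 over WT domain peaks and 9.02, 8.63 and 7.64 over cKO domain peaks. In peaks of the narrower shared regions the 6 medians lay between 5.83 and 6.17. These are the authors' values per peak and describe each list on its own.

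Most domains met genes, and a minority contained a listed gene start. Starts were listed for only 160 of the 206 coding genes that met a domain, so domains with a start may be undercounted. Of the 247 domains, 213 overlapped a protein-coding gene: 188 met 1 gene, 19 met 2 and 6 met at least 3. The other 34 met no coding gene, of which 26 met a noncoding gene and 8 met no listed gene. In these 34 the nearest coding gene was 75318 bp away in the median and 884532 bp at most. Listed coding starts were present in 103 domains (41.7%), against 23.8% of the shared regions under 10000 bp, and wider windows have more room for a start. Among shared regions, that share was 19.0% under 2000 bp, 32.2% from 2000 to below 5000 bp and 32.2% from 5000 to below 10000 bp. Coding gene bodies covered 66.4% of domain bases and 62.6% of bases in the narrower shared regions. The gene table gives no exons, so positions are described only as inside or outside genes.

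Where a domain held 1 listed start, it mostly reached farther downstream of the start, at times past the end of the gene, than upstream. In these 64 domains the median length was 4222 bp upstream of the start and 9590 bp downstream, and the downstream side was the longer in 55. Zbtb18, a BTB zinc-finger repressor of cortical neurons, had a domain of 23360 bp that reached 1779 bp ahead of its first listed start. At Epha4, a receptor of ephrin signalling, the domain of 24323 bp reached 2444 bp upstream and 21878 bp downstream. Pou3f3, a short gene, was near the middle of its domain, with 19359 bp upstream and 19472 bp downstream. Domains with a listed coding start had a median core of 77.0% of their width, and those without coding gene 77.0%. In those that met a coding gene but no listed start it was 64.4%. That last class includes domains enclosing a whole gene without a listed start, such as Insm1.

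Domains clustered at some genes. The nuclear factor I genes Nfia and Nfib held 8 and 5 domains. Meis2, a homeobox cofactor gene, Tcf4 and Prdm16 held 4 each, and 23 coding genes met several domains. Of 227 gaps between neighbouring domains on a chromosome, 47 were under 100 kb. The shortest, 574 bp, separated a pair at Nfib, so a slightly longer peak in any list would have joined them. Chromosome 4 held 33 domains, 1.24% of its shared regions, and chromosome 10 held 2, 0.102% of its shared regions.

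The 206 coding genes that met a domain were 0.941% of 21883 protein-coding genes, and many were regulators of forebrain development. Counts are given for 17 gene lists, chosen with earlier results of these data known, 254 genes in all. Of these, 47 met a domain, and each list's share is a description beside the 0.941% of all coding genes. Long genes have more room to meet a domain, and list members can share one.

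**Figure D3:**
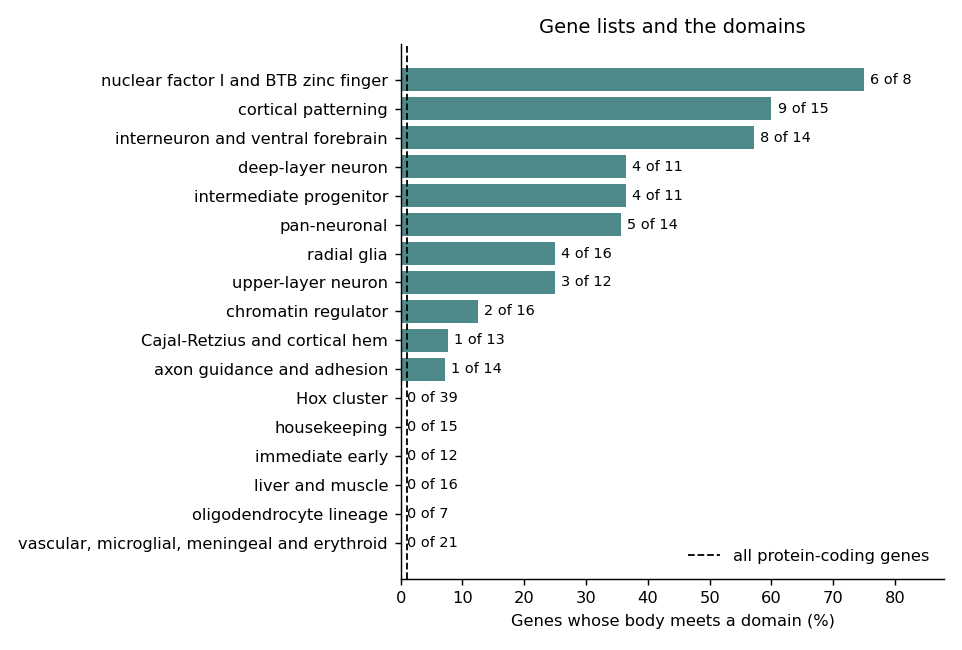
Percentage of genes in each list whose body met a domain, with the number of genes beside each bar; the dashed line is the 0.941% of all protein-coding genes. Nuclear factor I and BTB zinc-finger genes (6 of 8), patterning genes (9 of 15) and ventral forebrain genes (8 of 14) stand highest, and 6 lists have no gene in a domain. The lists were chosen with earlier results of these data known.

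Nuclear factor I and BTB zinc-finger genes met domains in 6 of 8 cases. Beside Nfix, the widest domains were 43892 bp at Nfib and 28049 bp at Nfia. Zbtb18 followed with 23360 bp and Zbtb20, a factor of hippocampal and upper-layer development, with 12087 bp. Among cortical patterning genes 9 of 15 met a domain, among them Nr2f1 and Lhx2. Emx2 (22832 bp), a homeobox gene of cortical areas, and Emx1 (12405 bp), whose locus carries the Cre in the cKO, were 2 others.

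Genes of ventral forebrain and interneurons met domains in 8 of 14 cases, although the tissue was cortex. Dlx5 and Dlx6 shared a domain of 33097 bp, and Dlx1 and Dlx2, homeobox genes of interneuron progenitors, one of 24039 bp. Lhx6, a factor of interneurons from the medial ganglionic eminence, had a domain of 18610 bp with a core of 41.6%. Gad1 and Gad2, the enzymes of GABA synthesis, had domains of 12097 and 11564 bp.

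Progenitor and neuron lists each had between 25% and 36.4% of their members in domains. Of 16 radial glia genes 4 met one: Sox2 (35337 bp), Pax6 (25122 bp), Notch1 (23454 bp) and the glutamate transporter gene Slc1a3 (10995 bp). Of 11 intermediate progenitor genes 4 did so: Insm1 (14459 bp), Neurog2 (12612 bp), Btg2 (11813 bp) and Dll1 (10967 bp). Pan-neuronal genes gave 5 of 14, with Bcl11a and Neurod2 (19316 bp) the widest. Deep-layer genes gave 4 of 11, Tbr1 (24166 bp), Bcl11b (17813 bp), Sox5 (17548 bp) and Fezf2 (16663 bp). Upper-layer genes gave 3 of 12, with Pou3f3 and Pou3f2 (22364 bp) among them.

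The remaining lists had few or no genes in domains. Those with any, in the order below, had shares of 12.5%, 7.14% and 7.69%, above the 0.941% of all coding genes. Chromatin regulators gave 2 of 16, Prdm16 and Chd3 (10631 bp), axon guidance and adhesion genes 1 of 14, Epha4, and Cajal-Retzius and cortical hem genes 1 of 13, the ligand gene Wnt5a (10961 bp). None met a domain among 7 oligodendrocyte lineage genes, 21 vascular, microglial, meningeal and erythroid genes, 12 immediate early genes, 15 housekeeping genes, 39 Hox genes and 16 liver and muscle genes. Counting from 5000 bp, 10 of the 14 axon guidance genes, 7 of the 16 chromatin regulators and 5 of the 12 immediate early genes met a shared region. So did 3 of the 15 housekeeping genes and 1 of the 13 Cajal-Retzius and hem genes, and the other lists named here stayed at 0. The share of all coding genes at this width is not given here, and the 0.941% does not apply to it.

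Markers of the tissue were read the same way. All 7 dorsal cortex markers had a peak in every list, and 6 met a domain; Eomes, the marker of intermediate progenitors, did not. Of 8 ventral forebrain markers 7 had a peak in every list and all 7 met a domain, while Nkx2-1 was without a peak in all 6. None of the endothelial, microglial, meningeal and erythroid markers met a domain. Peaks over the bodies of 4 meningeal genes summed to 2251, 2998 and 2633 bp in WT and 1510, 1524 and 1088 bp in cKO, with Col3a1 and Foxc1 at 0 in all lists. Those of 5 endothelial genes summed to 14252, 15379 and 7244 bp in WT and 12273, 10555 and 9969 bp in cKO. The 4 microglial genes summed to 2273, 2297 and 536 bp in WT and 681, 578 and 222 bp in cKO, with Aif1 at 0 in all lists, and 1 of 3 erythroid genes, Klf1, had peaks. The part of such cells in the genotype differences below was not tested.

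No domain passed the test between genotypes in the fit described here, and up to 3 did so under other settings. Covered length per region was scaled to the same list total, log2 transformed after adding 500 bp, and compared with limma over 25206 regions of any width, with the library identifier as covariate and a call at an adjusted p below 0.05. By this rule 195 of all regions tested (0.774%) were called, 103 longer and 92 shorter in cKO, and 0 of the 247 domains. Called regions were 2 longer and 1 shorter without scaling, and 5 longer and 10 shorter with quantile normalization. At an unadjusted p below 0.05, 13 domains were longer in cKO, beside 6.73% of all regions, and 3 were shorter, beside 3.86%. The 247 domains had log2 values between -0.57 and 0.61, with a standard deviation of 0.14. Over shared regions it was 0.18 under 2000 bp, 0.24 from 2000 to below 5000 bp and 0.21 from 5000 to below 10000 bp. Covered length before scaling cannot exceed the merged width. Where a domain was covered nearly whole in every list, its scaled lengths and log2 change therefore follow mainly the list totals.

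**Figure D4:**
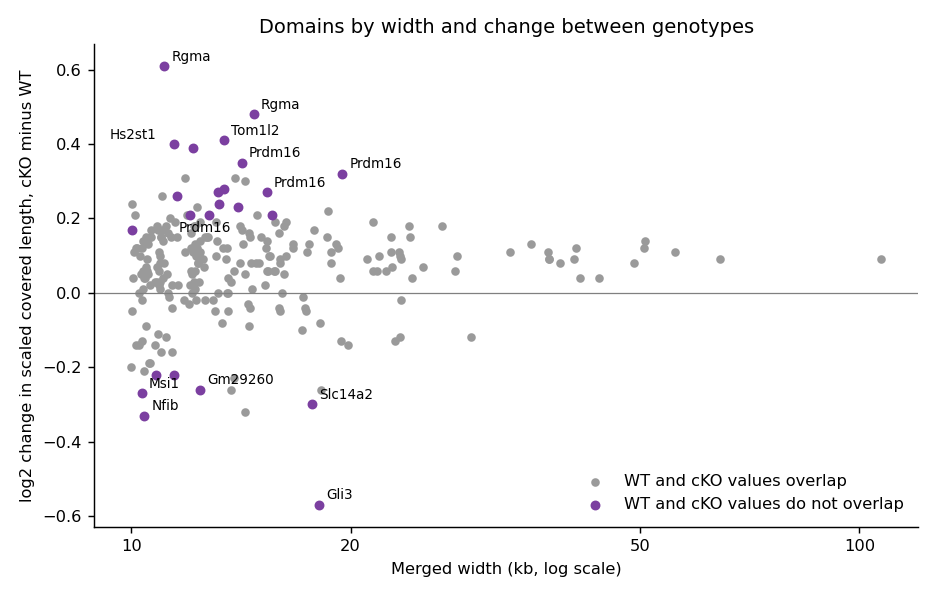
Log2 change in scaled covered length, cKO minus WT, against merged width (kb, log scale) for the 247 domains. Purple points are the 24 domains whose 3 WT and 3 cKO values did not overlap, and Rgma at 0.61 and Gli3 at -0.57 are the extremes, while the 12 widest domains lie between 0.04 and 0.14.

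The median over domains was 0.09 on the log2 scale, beside 0.06 over all regions tested, and 190 domains were above 0 and 57 at or below it. This direction was not stable. Without scaling the domain median was -0.02, with 99 domains above 0. Within identifier A the median was 0.20 for domains and 0.13 for all regions, and within identifier B it was -0.16 and -0.09. The 12 widest domains had log2 values between 0.04 and 0.14, and each was positive within identifier A and negative within B. At Mir9-3 each list covered 55434 to 55813 bp before scaling. After scaling the lengths were 48637, 44051 and 74855 bp in WT and 55706, 57030 and 63531 bp in cKO. The log2 changes there, 0.28 within A and -0.23 within B, thus follow the list totals.

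Scaled WT and cKO values did not overlap in 24 domains, 17 higher in cKO, beside 7.56% of all regions, and 7 lower, beside 3.71%. On unscaled lengths 3 were higher in cKO, beside 2.88%, and 9 lower, beside 5.53%. Groups were separate on both scales, in the same direction, in 4 domains. The 1 longer in cKO, at Rgma, stands beside 1.60% of all regions tested, and the 3 shorter, a pair at Gli3 and 1 at the noncoding gene Gm29260, beside 1.84%. These 4 are described first, together with the 5 domains of smallest p in each direction and those at Prdm16. None of them passed the threshold.

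Rgma encodes a membrane-anchored guidance molecule that repels axons and acts as a co-receptor for bone morphogenetic proteins. The gene spans chr7:73375520-73419899 and met a pair of domains 5712 bp apart. In the first, chr7:73372154-73383244, peaks covered 7063, 7729 and 5787 bp in WT and 9886, 11091 and 8777 bp in cKO. Every cKO library was longer than every WT library, and the peak was unbroken only in cKO replicate 2. The scaled mean was 6697 ± 968 bp for WT and 10436 ± 835 bp for cKO (SD, n = 3). The log2 change was 0.61 ± 0.13 (SE), with an adjusted p of 0.0842 by limma. It was 0.74 within identifier A and 0.34 within B, and the adjusted p was 0.0341 without cKO replicate 1 and 0.0333 with a pseudocount of 2000 bp.

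The second Rgma domain, chr7:73388957-73403673, lay inside the gene. It was covered over 11190, 12259 and 8330 bp in WT and 14364, 14507 and 12218 bp in cKO. On this unscaled length cKO replicate 3 fell just below WT replicate 2, while after scaling the groups were separate. The log2 change was 0.48 ± 0.12 (SE), with an adjusted p of 0.143, or 0.0403 with a pseudocount of 2000 bp. In cKO replicates 1 and 2 the domain was 1 peak, and in the other 4 libraries 2 or 3 peaks.

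Gli3 encodes a zinc-finger effector of Hedgehog signalling required for the dorsal telencephalon. The gene, on the plus strand at chr13:15463723-15730026, also met a pair of domains. The one inside the gene, chr13:15539951-15558035, was covered over 15066, 17389 and 9980 bp in WT and 9095, 7621 and 8717 bp in cKO. All cKO libraries were shorter than all WT libraries, with cKO replicate 1 the nearest to WT replicate 3. The scaled mean was 13459 ± 288 bp for WT and 8961 ± 1078 bp for cKO (SD, n = 3). The log2 change was -0.57 ± 0.13 (SE), with an adjusted p of 0.0855. It was -0.64 within identifier A and -0.42 within B, and the adjusted p was 0.0423 without cKO replicate 1 and 0.0266 with a pseudocount of 2000 bp.

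The domain at the start of Gli3, chr13:15461329-15472120, was 1 peak in every list. Its covered length was 10593, 10674 and 8314 bp in WT and 7999, 7893 and 7301 bp in cKO. The groups were separate, but after scaling the log2 change was -0.22 ± 0.12 (SE), with an adjusted p of 0.623. At Gm29260, chr1:41741419-41753840, lengths were 12405, 12094 and 9433 bp in WT and 9179, 8471 and 8250 bp in cKO. That was a log2 change of -0.26 ± 0.12 (SE), with an adjusted p of 0.525, in a domain 884532 bp from the nearest coding gene.

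**Figure D5:**
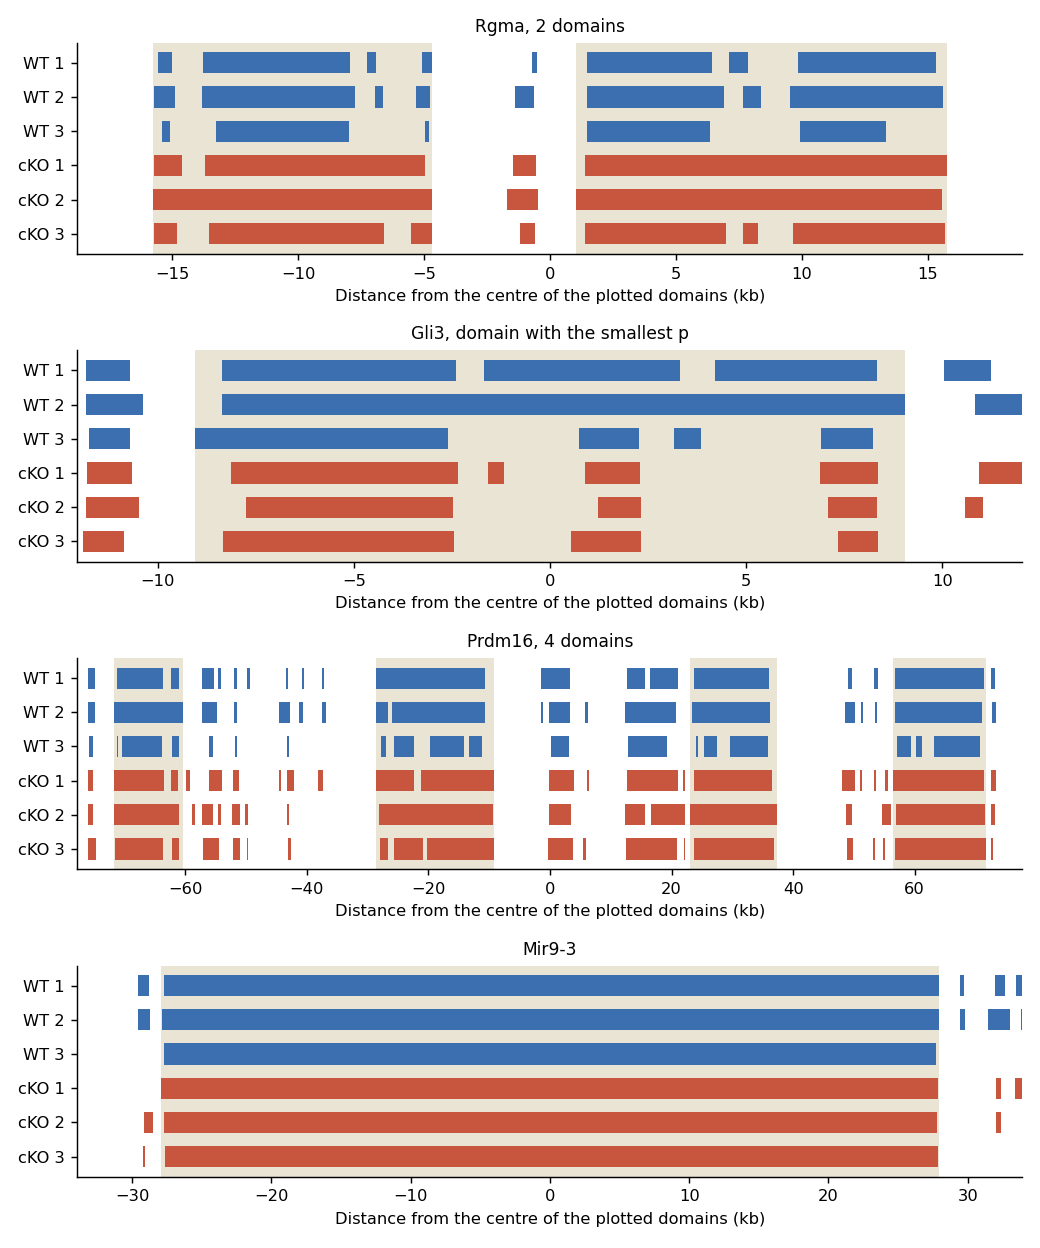
Peaks of the 6 libraries (bars; WT blue, cKO red) over domains (shaded) at Rgma, Gli3, Prdm16 and Mir9-3, by distance from the centre of the plotted domains in kb. The first Rgma domain is 1 peak in cKO replicate 2 and the second in cKO replicates 1 and 2, while WT has 2 to 4 peaks in each. The Gli3 domain is covered over 42.1% to 50.3% of its width in cKO and 55.2% to 96.2% in WT, and at Mir9-3 all 6 lists have 1 unbroken peak.

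Prdm16, the gene carrying the floxed allele, met 4 domains. Covered length under acetylation peaks does not check the deletion. The gene lies on the minus strand at chr4:154316122-154637360. The domain at its start, chr4:154624992-154640324, was covered over 14681, 14235 and 11008 bp in WT and 15048, 14665 and 14894 bp in cKO, so that cKO replicate 2 lay just under WT replicate 1. Its log2 change was 0.27 ± 0.12 (SE), with an adjusted p of 0.462. Inside the gene, chr4:154591697-154605870 had 12256, 12979 and 8776 bp in WT and 12757, 14174 and 13077 bp in cKO, with a log2 change of 0.35 ± 0.12 (SE) and an adjusted p of 0.295.

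The other pair at Prdm16 were chr4:154539923-154559393, with a log2 change of 0.32 and an adjusted p of 0.370, and chr4:154496888-154508226, with 0.15 and 0.820. Scaled values were separate between genotypes in 3 of the 4 domains, all higher in cKO, where 7.56% of all regions tested were, and unscaled values overlapped in all 4. WT replicate 3, the shortest list, was lowest in each before scaling. In the 3 domains with separate scaled values the change was positive within both identifiers, and in the fourth it was 0.26 within A and -0.06 within B.

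Away from Rgma and Prdm16, the domains longer in cKO with the smallest p lay at Hs2st1 and Tom1l2. At Hs2st1 (chr3:144550781-144562237), a gene of heparan sulfate synthesis, covered length was 10290, 9976 and 5620 bp in WT and 11161, 10283 and 9501 bp in cKO. The unscaled groups overlapped, and the log2 change was 0.40 ± 0.12 (SE), adjusted p 0.229. At Tom1l2 (chr11:60300187-60313580), a gene of endosomal sorting, covered length was 9379, 12445 and 5251 bp in WT and 11262, 10204 and 10502 bp in cKO. On this unscaled length WT spanned the cKO values, and the scaled log2 change was 0.41 ± 0.14 (SE), adjusted p 0.295. Scaled values were separate at Hs2st1 and Tom1l2, higher in cKO, where 7.56% of all regions tested were.

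Among domains shorter in cKO, that at Nfib (chr4:82431957-82442362) was covered over 8589, 8751 and 5495 bp in WT and 6062, 6270 and 4136 bp in cKO, with WT replicate 3 inside the cKO range. Its log2 change was -0.33 ± 0.13 (SE), adjusted p 0.401, and it was 0.48 once weaker peaks, under 5 in -log10 q, were dropped. The change at the 43892 bp domain of the same gene was 0.04. A domain of 17699 bp in the urea transporter gene Slc14a2, on chromosome 18, had 16778, 15888 and 11494 bp in WT and 11825, 10175 and 10659 bp in cKO. The unscaled values overlapped and the scaled ones did not, with a log2 change of -0.30 ± 0.13 (SE), adjusted p 0.431. At Msi1 (chr5:115396707-115407030), a progenitor RNA-binding protein gene, lengths were 8459, 7860 and 4531 bp in WT and 5601, 5013 and 4585 bp in cKO, with WT replicate 3 the lowest of all. The log2 change was -0.27 ± 0.12 (SE), adjusted p 0.480, and the second Msi1 domain had 0.14. Scaled values were also separate at the first Msi1 domain and at chr4:82431957-82442362, lower in cKO, where 3.71% of all regions tested were.

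Domains at the listed developmental genes gave 0 calls. Over all domains the log2 change had a median of 0.09, with 5th and 95th percentiles of -0.20 and 0.27. For the widest domain of each listed gene, log2 changes reached 0.22 at Lhx6 (adjusted p 0.719), 0.21 at Dmrt3 (0.612), 0.18 at the Dlx1 and Dlx2 domain (0.754) and 0.17 at Bcl11b (0.751), besides 0.32 at Prdm16. The lowest values were -0.16 at Slc1a3 (0.767) and -0.14 at Neurod1 (0.824). At Sox2 (chr3:34637027-34672363) covered length was 34894, 34208 and 33001 bp in WT and 35117, 34830 and 33736 bp in cKO, and the groups overlapped. At Tbr1 (chr2:61794131-61818296) it was 23400, 23929 and 20048 bp in WT and 23281, 22567 and 23154 bp in cKO, and the cKO values lay within the WT range. The log2 changes were 0.13 ± 0.14 (SE) at Sox2 and 0.15 ± 0.12 (SE) at Tbr1.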

How the data were processed

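H3K27ac maps came from native chromatin immunoprecipitation with sequencing. Per the labels' protocols, micrococcal nuclease cut the chromatin, antibody ab4729 precipitated it, and 11 PCR cycles amplified the libraries. The submitters' processing notes name MACS2 2.1.1, Bowtie2 2.2.8, cutadapt and FastQC and the mm10 build. Their parameters and the use of input were not given in the sources used here, and the 6 input libraries were not analysed here.

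The authors deposited 1 broad peak list per library. Of its columns, the deposited display score was not used, and the authors' fold enrichment ratio and their -log10 p-value and -log10 q-value of each peak served only to describe, filter or rank peaks within a list. The lists hold no read counts, so the depth is unknown and covered length measures extent and not height.

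Touching peaks and peaks sharing at least 1 bp were merged. Covered bases per region and library were scaled to the mean list total of 72.7 Mb. Regions with a mean of at least 1000 bp were tested with limma 3.58.1 (R 4.3.3; lmFit, eBayes) on log2(scaled bp + 500), with the library identifier as covariate and Benjamini-Hochberg adjustment over 25206 regions. Every adjusted p is from that fit unless another setting is named with it. The genotype labels were not used to choose domains. Other steps used Python 3.11.15, numpy 2.4.6, pandas 2.3.3 and matplotlib 3.10.9. The fit was also run on simulated data with known changes, and the outcome is not reported here. The simulated noise was independent between libraries, without identifier or list-length effects, so it cannot show how the fit handles these.

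Genes, promoters and miRNAs came from RefSeq tables of GRCm38.p6, the assembly of mm10. All 254 listed genes were found in the gene table, and 160 of the 206 coding genes that met a domain had a promoter entry. Gene starts therefore refer to genes with an entry. Positions are 1-based.

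The domains and gene lists were chosen with earlier results of these data known. Domains named are the 12 widest, the 5 of smallest p per direction, those at Prdm16, the 5 on each side of the width threshold, the 5 with the longest common core, and up to 4 genes per list with the widest domain. Some domains and genes that this rule names are not reported here. Further genes named in the text, such as the start domain of Gli3, Ttc28, Emx1 and the arms of the miRNA families, were picked with their values in view. The alternatives tried were a minimum -log10 q of 5, equal-length lists, merging across 1000 bp, widths of 5000 and 20000 bp, gene bodies with 20 kb flanks, other covariates, pseudocounts of 100 and 2000 bp, no filter, other scalings, identifier A alone, and each library left out.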

Additional observations from a re-analysis of the deposited data

How the results depend on the processing

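The number of domains was 1671 at a minimum width of 5000 bp and 39 at 20000 bp, and 96 and 22 listed genes met them. With other peak sets, merging or a library left out it was 215 to 348. The cKO minus WT difference in domain share of covered bases was -0.112 without WT replicate 2, 0.0661 without WT replicate 1 and 0.710 without WT replicate 3. The difference in median covered width (-1.60 percentage points) was positive without WT replicate 1 (0.929), WT replicate 2 (0.818) or cKO replicate 3 (0.0235), and -7.71 without WT replicate 3. The difference in peaks per domain was 0.0605 (without WT replicate 2) to 0.507 (without WT replicate 3).

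Regions called numbered 66 at -log10 q of at least 5, 36 with equal-length lists, 61 with a pseudocount of 100 bp, 90 without filter, 3 without scaling, 15 with quantile normalization, 13 when scaled to shared regions and 9 in identifier A alone. Leaving out 1 library gave 8 (without WT replicate 3) to 866 (without cKO replicate 1) regions, with 703 without cKO replicate 2, 70 without WT replicate 2 and 14 without cKO replicate 3. Domains called numbered 0 to 2 in these: without cKO replicate 1, the Gli3 domain inside the gene (adjusted p 0.0423) and the first Rgma domain (0.0341) were called. A pseudocount of 2000 bp called 3 domains, the same pair (0.0266 and 0.0333) and the second Rgma domain (0.0403). Over all 18 alternatives the adjusted p ran from 0.0203 to 0.400 at the first Rgma domain and from 0.0266 to 0.438 at Gli3, with 1 sign each. The cause was not tested.

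The replicate numbers did not meet the criterion for pairing: deviations of same-numbered WT and cKO libraries correlated at 0.12, 0.07 and 0.21 over all regions tested, though at 0.15, 0.29 and 0.49 over the domains alone. Over all regions WT libraries 1 and 3 correlated best with the cKO library of their own number and WT library 2 did not, and over domains libraries 2 and 3 did and library 1 did not. A replicate block in place of the identifier called 837 regions and 2 domains, Gli3 (0.0334) and the first Rgma domain (0.0203).

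The sign turned at the Nfib domain of smallest p with stricter peaks (0.48), and at wide domains whose change was near 0. Without scaling, Nfix, Tcf4, Mir9-2, Pou3f3 and Lhx2 gave -0.02, the domain near Ppara -0.03, and the widest Nfib domain -0.07. Scaled to shared regions, Nfib gave -0.01, and with quantile normalization Lhx2 gave -0.02. With 1 library left out, values ran from -0.04 at Nfib and -0.01 at Mir9-2 and Pou3f3 (without WT replicate 2) to 0.18 at Nfib and 0.26 at Mir9-2 and Pou3f3 (without WT replicate 3).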

Other observations

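Replication-dependent histone genes, which are packed in clusters on chromosome 13, met 4 domains, seen after the gene names were read. They were 14869 bp wide at H1f5, H3c11, H2ac22 and H2bc22, 11843 bp at H2ac12 to H2bc11, 10957 bp at H3c3 to H3c2 and 10122 bp at H4c8, H2ac10 and H3c8. At the last of these, 6 of 6 lists held 1 unbroken peak. The H2ac12 domain was covered over 9444, 9934 and 7455 bp in WT and 9468, 11755 and 9781 bp in cKO, which overlapped. Its log2 change was 0.31 ± 0.14 (SE), with an adjusted p of 0.460 by limma. Near-identical histone genes can share reads, and how the authors treated such reads is not given in the sources used here.

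Long noncoding RNA genes stood alone in several domains, also seen after their names were read. Malat1, an abundant nuclear RNA, lay in a domain of 13368 bp with a core of 80.1% and a log2 change of 0.12. Rmst, a noncoding RNA of neural progenitors, lay in 1 of the 2 domains of chromosome 10, 14340 bp wide. Its covered length was 13183, 13647 and 7526 bp in WT and 11901, 6668 and 6688 bp in cKO. The cKO replicate 1 value lay among those of WT, and the log2 change was -0.32 ± 0.18 (SE), with an adjusted p of 0.622. The other chromosome 10 domain was at Nr2e1, a nuclear receptor gene of neural stem cells, 16182 bp wide.

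Hedgehog co-receptor genes Boc and Cdon each had wide domains. Boc held a pair, 23354 and 10841 bp wide, with log2 changes of -0.12 and 0.07. The Cdon domain of 27789 bp had 0.06, and a domain of 15770 bp with 0.06 lay 6814 bp from the gene. Their adjusted p values ran from 0.851 to 0.924.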
